A study of Homo sapiens with 16 samples.

Results

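The histone cluster genes are the gene copies that encode the linker histone H1 and the core histones H2A, H2B, H3 and H4 and that carry HIST1 to HIST4 symbols. They were chosen by symbol, as every entry that begins with HIST1H to HIST4H and has a total of at least 50 counts over all 16 libraries. Of 73 such symbols among the 26475 entries of the table, 45 were members, which were 5 linker (H1), 10 H2A, 17 H2B, 7 H3 and 6 H4 genes. At the threshold, HIST1H2BL and HIST1H4B had 50 counts each and were kept, while HIST2H2AB with 47 and HIST1H4A with 45 were not. Of the 28 symbols that were not members, 13 had 1 to 47 counts and 15 were listed at 0 in every library.

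RNA-seq was carried out on MCF10A cells, a human epithelial line from breast that became immortal without transformation and does not form tumours, in 4 groups of 4 libraries. All groups were grown in the same medium with insulin, EGF, hydrocortisone, cholera toxin and horse serum. The control group was given vehicle (DMSO) and no collagen, and the collagen group was given vehicle and Collagen 1. The other groups were given Collagen 1 with DDR1-IN-1 (DDR1i, 2 μM), an inhibitor of the collagen receptor kinase DDR1, or with AI-10-104 (RUNXi, 5 μM), which blocks the binding of RUNX proteins to their partner CBFβ. Inhibitors were present for 48 h and collagen, at 0.05 mg/mL, for the last 24 h. All libraries came from 1 cell line, and no source used here says that replicates were separate cultures, so that p-values measure the spread between libraries, which may be technical. Counts came from bulk RNA, in which fewer cycling cells and less histone mRNA per cell cannot be told apart.

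Histones package DNA into nucleosomes. The core histones form the protein spool, and H1 binds the linker DNA between nucleosomes. Most cluster genes are used in S phase, when new DNA needs new histones, and their mRNAs are unusual in that they end in a conserved stem-loop, bound by the protein SLBP, and not in a poly(A) tail. Libraries made from poly(A) RNA therefore hold few reads of them, and some cluster genes, HIST1H1C and HIST1H2BK among them, are known to give a polyadenylated mRNA as well. In contrast, replacement histone genes such as H3F3B and H2AFZ give ordinary polyadenylated mRNAs throughout the cell cycle.

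The sequence of the mRNA end was read from GRCh37, the build of the deposited counts. A stem-loop was found within 200 bases after the stop codon in all 43 members with an annotated coding end (HIST1H2BF and HIST1H2BG had none in that annotation). Of 20124 coding genes, these members and other histone cluster genes included, 70 had one (0.348%). In the members the stem-loop began 24 to 58 bases after the stop codon, with a median of 36. The following sequences show the most frequent form (HIST1H1C, HIST3H2A and HIST2H2BE), a form shared by several H2B genes (HIST1H2BK and HIST1H2BD), the form of the H4 genes (HIST4H4) and a form held by 1 member (HIST2H2AC), each 5′ to 3′ as DNA on the gene's strand with the stem-loop in capitals.
HIST1H1C: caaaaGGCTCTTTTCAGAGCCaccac
HIST3H2A: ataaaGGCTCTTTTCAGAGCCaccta
HIST2H2BE: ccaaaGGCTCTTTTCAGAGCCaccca
HIST1H2BK: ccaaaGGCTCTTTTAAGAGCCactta
HIST1H2BD: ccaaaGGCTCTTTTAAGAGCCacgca
HIST4H4: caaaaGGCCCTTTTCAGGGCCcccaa
HIST2H2AC: ccaaaGGCTCTTTTTAGAGCCaccca
These windows lie at chr6:26055967-26055992 for HIST1H1C, chr1:228645065-228645090 for HIST3H2A, chr1:149857733-149857758 for HIST2H2BE, chr6:27114140-27114165 for HIST1H2BK, chr6:26158810-26158835 for HIST1H2BD, chr12:14923653-14923678 for HIST4H4 and chr1:149858936-149858961 for HIST2H2AC. HIST1H1C, HIST1H2BK, HIST3H2A, HIST2H2BE and HIST4H4 are on the minus strand, and HIST1H2BD and HIST2H2AC on the plus strand. There were 6 forms of the stem-loop among the 43 members. The first form was held by 28 members of all classes but H4, the H4 form by all 6 H4 members and no other, and the HIST1H2BK form by 6 members, of which 4 were H2B genes.

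All 43 annotated members had 1 exon in their canonical transcript. The canonical transcript ended at most 3 bases after the printed window in 42 of them, and 1724 bases after it in HIST2H2BE. RefSeq (GRCh38.p14) lists 6 members with a gene span over 1000 bases, which include HIST1H2BK (8566 bases), HIST1H2BC (10757) and HIST1H2BD (13229). Which of the transcript ends were counted is not given in the sources used here, and neither is the use of strand, so that HIST1H2BC, whose exon is covered by another annotated gene, is uncertain. Shared sequence or an overlapping exon covered over 50% of 15 of the annotated symbols, of which 7 were listed at 0 and 5 were members.

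Promoters were compared by their letters, in the 250 bases before the RefSeq start of 43 members (GRCh38.p14), on both strands. The octamer ATTTGCAT, known as an element of H2B promoters, was found in 13 of 17 H2B, 7 of 9 H2A, 1 of 7 H3, 0 of 5 H1 and 0 of 5 H4 members, against 1.66% of all 27305 promoters. Several H2A and H2B members lie head to head, such as HIST1H2BK (minus strand, from chr6:27114634) and HIST1H2AH (plus strand, from chr6:27114885) on GRCh37. The 250 bases read for such a pair are largely the same stretch, so that H2A and H2B counts of a motif are not independent. The letters AAACACA, known as the H1 box, were found in 5 of 5 H1 members and in no other member, against 4.95% of all promoters. CCAAT was found in all H1, H2A, H2B and H3 members read but in 0 of 5 H4 members (33.0% of all promoters), and TATAAA in 28 of 43 (11.1%). The 150 bases before the start are shown for the 3 members detected in every library, with these letters in capitals (ATTGG is CCAAT on the other strand).
HIST1H1C: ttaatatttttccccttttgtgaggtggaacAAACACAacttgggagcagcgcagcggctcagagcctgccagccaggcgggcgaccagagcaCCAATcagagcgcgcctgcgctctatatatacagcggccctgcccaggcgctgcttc
HIST1H2BK: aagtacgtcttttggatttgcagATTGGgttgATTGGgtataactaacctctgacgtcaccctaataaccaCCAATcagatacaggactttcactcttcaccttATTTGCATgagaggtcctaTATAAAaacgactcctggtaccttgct
HIST3H2A: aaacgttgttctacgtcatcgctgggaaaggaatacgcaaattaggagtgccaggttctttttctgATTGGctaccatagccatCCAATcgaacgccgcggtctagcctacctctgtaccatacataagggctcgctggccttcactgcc
On GRCh38.p14 these are chr6:26056471-26056620, chr6:27146859-27147008 and chr1:228457874-228458023, all on the minus strand. The HIST1H2BK stretch holds the octamer, CCAAT on both strands and TATAAA, the HIST1H1C stretch holds the H1 box and CCAAT, and the HIST3H2A stretch holds CCAAT on both strands. No binding was measured in these libraries.

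Total counts ranged from 12184619 to 44332378 per library, and the members together took 10409 counts, or 0.00275% of all counts (0.00131% to 0.00382% per library). The libraries differed in how many members they held, and did so within every group. All 45 members were detected in 3 libraries (control 1, control 4 and DDR1i 2), and 9 to 15 members in 6 libraries (control 2 and 3, collagen 1, DDR1i 3, RUNXi 1 and 3). The number of genes with exactly 1 count moved with this. It was 53 to 91 in 7 libraries, in which 9 to 21 members were detected, and 144 to 971 in the other 9, in which 26 to 45 were detected. The 7 libraries were 2 control, 2 collagen, 1 DDR1i and 2 RUNXi libraries. Both of these collagen libraries were among the 3 collagen libraries used in the fits below. Depth did not separate the 7 libraries from the other 9, with 12184619 to 26642600 counts against 16173156 to 44332378. In control 2 the 9 members detected had a median of 32 counts, whereas in control 1 the 45 had a median of 17. The part of this difference between libraries in the results was not tested, and values without these libraries are given beside them. Epithelial markers (KRT5, KRT14 and 7 more) summed to 12513 to 22645 CPM (counts scaled to the size of the library) in every library, against 5.42 to 32.9 for 5 fibroblast, 0 to 2.40 for 3 endothelial (1 of them at 0 in all libraries) and 0.328 to 18.7 for 3 leukocyte markers.

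**Figure D1:**
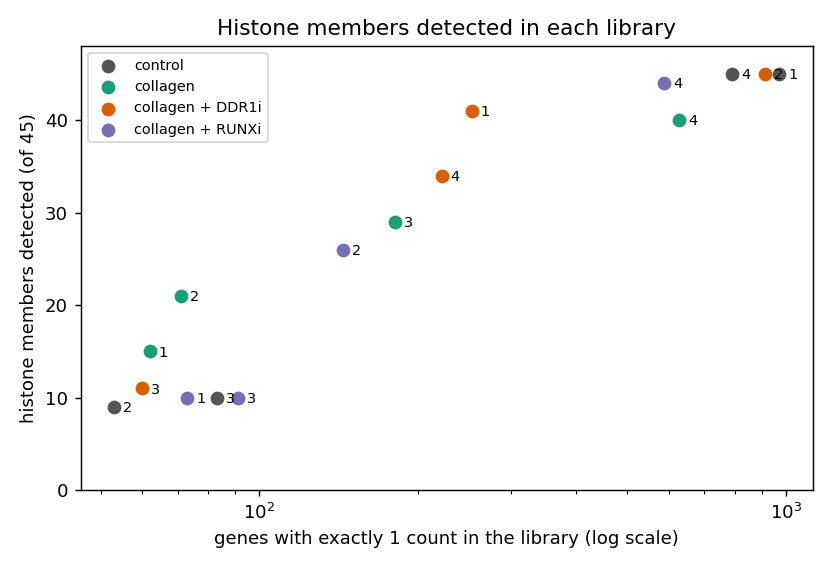
Number of the 45 histone members with at least 1 count (vertical axis) against the number of all genes with exactly 1 count (horizontal axis, log scale), 1 point per library, coloured by group and numbered by replicate. Libraries with 53 to 91 genes at 1 count held 9 to 21 members, and all 4 groups have libraries on both sides.

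Levels are given as normalised CPM, scaled by TMM over the 16 libraries. Collagen replicate 3, which the authors removed, is given apart from the mean of its group. HIST1H2BK, HIST1H1C and HIST3H2A were the only members detected in all 16 libraries, and together they took 47.5% of all member counts. Of the 45 members, 39 had a mean under 1 CPM, 42 were at 0 in at least 1 library and the median member had a mean of 0.219 CPM.

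HIST1H2BK, which encodes an H2B, had the highest mean level, 6.49 CPM. It was at 8.09, 6.63, 9.09 and 7.69 CPM in the control libraries, at 6.28, 3.74 and 10.3 CPM with collagen (4.92 in replicate 3), at 6.65, 5.39, 3.74 and 6.87 CPM with DDR1i and at 4.76, 7.70, 3.95 and 8.13 CPM with RUNXi. The groups overlapped, with means of 7.87 ± 1.02 (SD, n = 4), 6.76 ± 3.29 (n = 3), 5.66 ± 1.44 (n = 4) and 6.14 ± 2.09 CPM (n = 4). The collagen values alone spanned nearly the whole range of the DDR1i and RUNXi values.

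HIST1H1C, which encodes the linker histone H1.2, had a mean of 4.05 CPM. It was at 4.44, 12.3, 1.37 and 4.19 CPM in the control libraries, at 5.11, 2.49 and 4.69 CPM with collagen (2.52 in replicate 3), at 2.97, 3.20, 4.67 and 3.22 CPM with DDR1i and at 2.42, 3.83, 3.76 and 3.63 CPM with RUNXi. Its highest and lowest values were both in the control group, in 2 of the libraries with few members, and the control mean was 5.58 ± 4.70 CPM (SD, n = 4). The other means were 4.09 ± 1.40 (n = 3), 3.51 ± 0.780 (n = 4) and 3.41 ± 0.664 CPM (n = 4), and the groups overlapped.

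HIST3H2A, which encodes an H2A from the cluster on chromosome 1, had a mean of 2.45 CPM. It was at 4.32, 3.47 and 4.21 CPM with collagen (2.84 in replicate 3), at 1.31, 1.80, 1.15 and 2.06 CPM with RUNXi, at 3.48, 2.36, 0.890 and 2.08 CPM with DDR1i and at 3.58, 1.68, 0.560 and 3.38 CPM in the control libraries. Each collagen library, replicate 3 included, was above each RUNXi library. DDR1i and control libraries overlapped both.

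Among the other members known to give polyadenylated mRNA, HIST1H2BD had a mean of 1.11 CPM and HIST1H2AC, an H2A gene, 1.13 CPM. HIST1H2AC was at 1.17, 2.56, 2.12 and 1.07 CPM in the control libraries and at 0, 0.717 and 0.922 CPM with collagen (0.912 in replicate 3), so that these groups did not overlap. With DDR1i it was at 1.14, 0.876, 0.534 and 0.441 CPM, and with RUNXi at 0, 1.34, 3.06 and 1.18 CPM, a range that held the values of all other groups. HIST1H2BD, an H2B gene, was at 1.24, 1.92, 0.872 and 1.76 CPM in the control libraries and at 0.393, 0.831 and 1.16 CPM with collagen (1.28 in replicate 3). HIST2H2BE had a mean of 0.853 CPM and was at 0 in 1 control and 1 collagen library, HIST1H2BC a mean of 0.521 CPM with 4 libraries at 0. HIST1H2BJ (82 counts in 7 libraries) and HIST4H4, an H4 gene outside the large clusters (69 counts in 9 libraries), were near the bottom of the range.

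**Figure D2:**
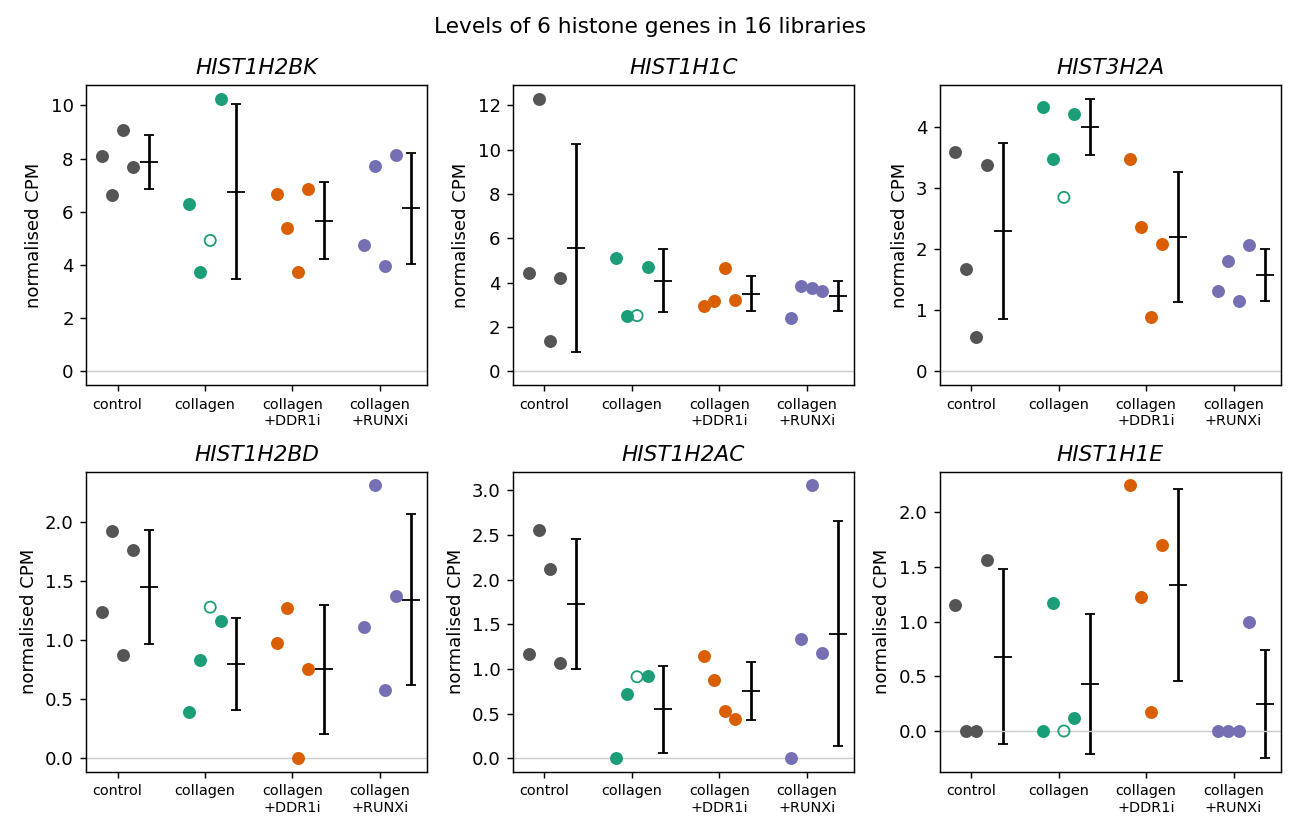
Normalised CPM (vertical axes, different ranges) of 6 histone genes by group, 1 point per library, with the mean and SD in black beside the points. The open circle is collagen replicate 3, which is not in the mean. HIST3H2A is the gene of the 6 for which collagen (2.84 to 4.32 CPM) and RUNXi (1.15 to 2.06 CPM) do not overlap, and HIST1H1E is at 0 in 7 libraries.

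Besides HIST1H1C, the linker members were HIST1H1E (H1.4), HIST1H1B (H1.5), HIST1H1D (H1.3) and HIST1H1A (H1.1). HIST1H1E had 52, 0, 0 and 54 counts in the control libraries, 0, 31, 0 and 3 with collagen, 53, 28, 4 and 27 with DDR1i and 0, 0, 0 and 26 with RUNXi. It was detected in every DDR1i library but in 1 of 4 RUNXi libraries. At the depth of the 3 RUNXi libraries at 0, a count of 0 allows a level of up to 0.123 to 0.191 CPM (3 counts, for counting error only). Among them, RUNXi 1 and RUNXi 3 are libraries with few members, in which the lowest member count above 0 was 12 and 4. A 0 in these libraries may therefore hide a higher level. HIST1H1B had 19, 0, 0 and 22 counts in the control libraries, 30, 0, 4 and 4 with collagen, 26, 13, 17 and 16 with DDR1i and 0, 6, 0 and 15 with RUNXi. Like HIST1H1E, it was present in all DDR1i libraries and absent from 2 or more libraries of the control and RUNXi groups. For HIST1H1B these were control 2 and 3 and RUNXi 1 and 3, all libraries with few members, as DDR1i 3 was. HIST1H1D (100 counts in all) and HIST1H1A (88) were each detected in 9 libraries. HIST1H1C gave 42.4% to 100% of the linker counts of a library, and in control 2, control 3 and RUNXi 3 it was the only linker gene detected.

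Linker and core members were summed per library. The 5 linker genes summed to 6.50, 12.3, 1.37 and 7.25 CPM in the control libraries, 7.18, 4.38 and 5.13 CPM with collagen (2.95 in replicate 3), 6.99, 6.26, 5.92 and 6.05 CPM with DDR1i and 3.28, 4.43, 3.76 and 5.80 CPM with RUNXi. The DDR1i libraries were all above the RUNXi libraries (means 6.31 ± 0.480 and 4.32 ± 1.10 CPM, SD, n = 4 each), and collagen and control libraries spanned both. Of single genes, 4.5% of all tested did not overlap between these 2 inhibitor groups. The margin was narrow, with 5.92 CPM in DDR1i 3, of which HIST1H1C gave 4.67, against 5.80 CPM in RUNXi 4. Without HIST1H1C the linker sums overlapped, at 4.03, 3.07, 1.25 and 2.84 CPM with DDR1i and 0.862, 0.600, 0 and 2.18 CPM with RUNXi. The 40 core genes summed to 29.3, 21.4, 20.8 and 31.2 CPM in the control libraries, 17.0, 19.2 and 25.0 CPM with collagen (16.7 in replicate 3), 29.7, 24.4, 7.12 and 24.7 CPM with DDR1i and 13.2, 19.4, 12.2 and 25.5 CPM with RUNXi. Core sums overlapped between all groups, and the lowest was in DDR1i 3, a library with 11 members detected. All members together summed to 32.5 ± 7.17 CPM in the control group (n = 4), 25.9 ± 3.61 with collagen (n = 3), 27.8 ± 10.2 with DDR1i and 21.9 ± 7.24 with RUNXi (SD, n = 4 each). No test was made on sums, since the members were chosen with results of these data known. Linker genes took 6.18% to 45.4% of the member counts of a library, and 20.2% over all libraries.

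By class, H2B took 45.2% of the member counts, H2A 23.7%, H1 20.2%, H3 6.06% and H4 4.82%. H4 summed to 2.50, 3.20, 0.400 and 2.71 CPM with DDR1i and to 0, 0.0461, 0 and 1.30 CPM with RUNXi, beside 0.617, 1.40 and 1.56 CPM with collagen (0.656 in replicate 3) and 1.83, 0.399, 0 and 2.60 CPM in the control libraries. The collagen libraries overlapped both inhibitor groups. Of the 4 DDR1i libraries, 3 were above every RUNXi library, and the other, DDR1i 3, was below RUNXi 4. H3 was at 0 in control 2, DDR1i 3 and RUNXi 1, all libraries with few members.

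**Figure D3:**
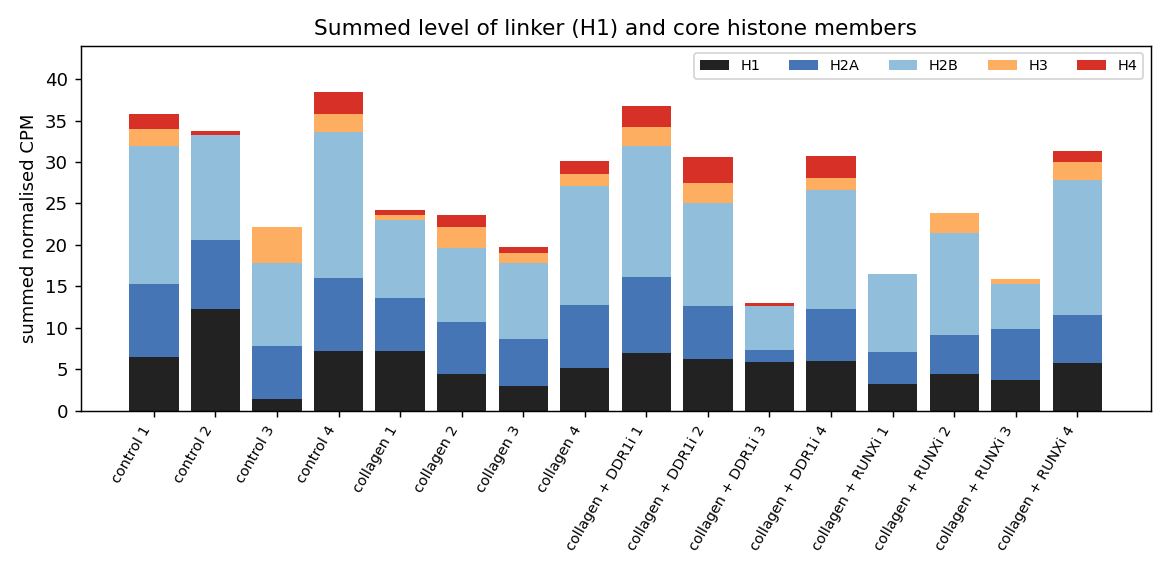
Summed normalised CPM of the H1, H2A, H2B, H3 and H4 members in each library (stacked bars from 0). Sums range from 13.0 CPM in DDR1i 3 to 38.4 CPM in control 4, and H3 and H4 are thin or missing in the libraries with few members.

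Levels were compared between genes per length, as mean CPM per 1000 bases of canonical transcript. The 9 members on the polyadenylated list stood at 2.68 CPM per 1000 bases, against 0.544 for the members off the list with a known length. HIST1H2BK stood at 13.1, HIST1H1C at 5.54 and HIST3H2A at 4.80, while HIST2H2BE, whose transcript is long, stood at 0.383. Also on the list, HIST1H2BD stood at 2.29, HIST1H2AC at 2.17 and HIST1H2BC at 1.13, but HIST4H4 at 0.419 and HIST1H2BJ at 0.374. Off the list, HIST2H2AC stood at 2.22 and HIST1H2BH at 2.09, so that the list did not separate single members. These values depend on the end that was counted, since a longer mRNA of HIST1H2BK would lower its value. Linker genes without HIST1H1C stood at 0.497, H4 at 0.501 and H3 at 0.461, so that these classes were close to each other per length. The replacement histone genes stood at 107 CPM per 1000 bases, with H2AFZ at 708, H3F3B at 226 and the linker variant H1FX at 49.5. H3F3A was listed at 0 in every library.

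The share of member counts that came from the polyadenylated list was 53.2% to 81.2% in the 7 libraries with under 100 genes at 1 count and 49.0% to 74.7% in the other 9. Members off the list summed to 2.45 to 11.02 CPM in the former and 5.58 to 18.1 CPM in the latter, which overlap. A list of 15 other RNAs without a poly(A) tail, among them RMRP and RN7SK, summed to 6.11 to 22.1 and 14.1 to 48.4 CPM.

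**Figure D4:**
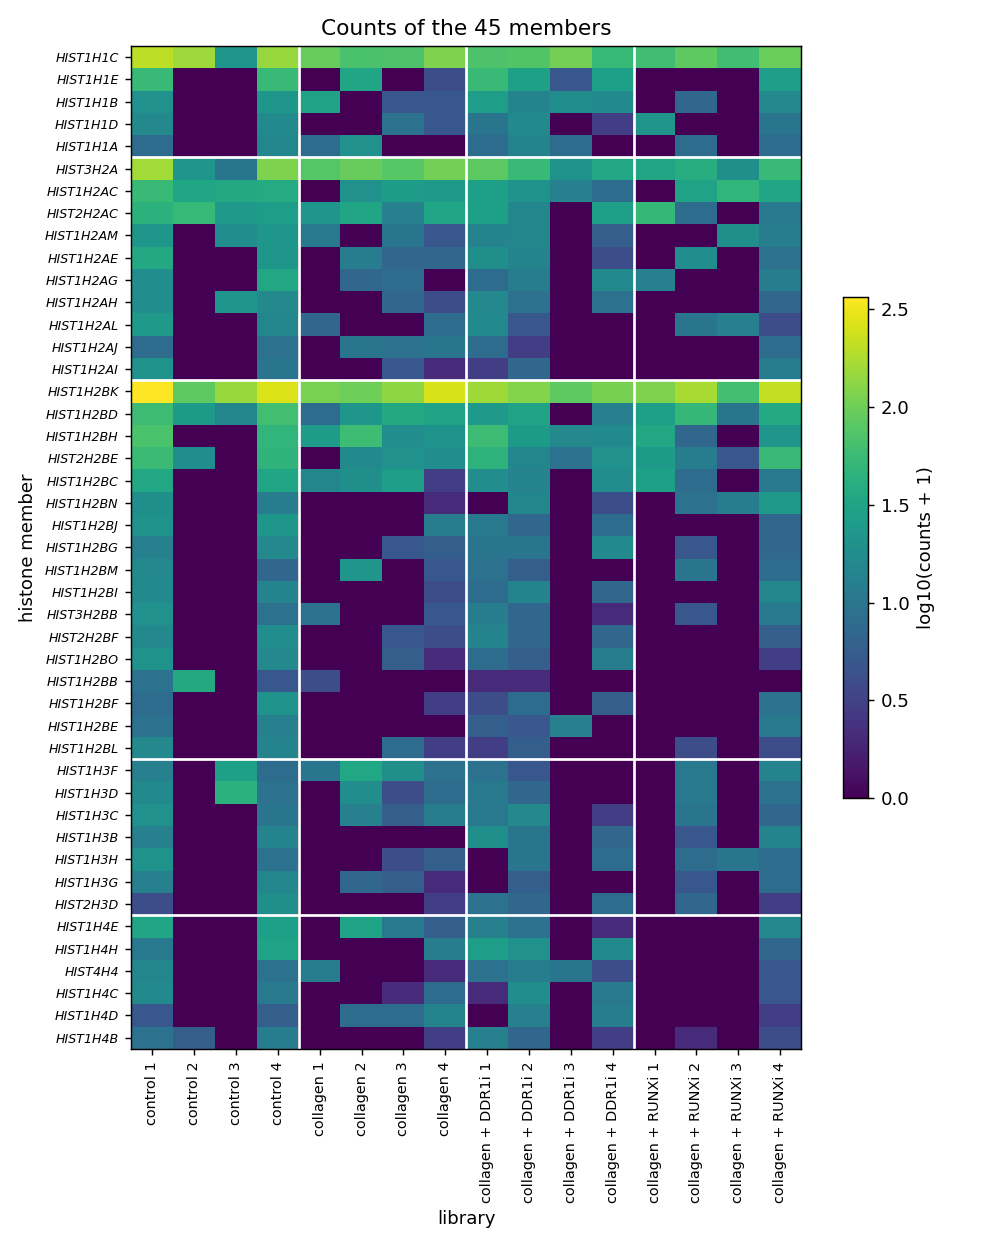
Counts of the 45 members (rows, ordered by histone class and total) in 16 libraries (columns), as log10 of counts + 1. HIST1H1C, HIST3H2A and HIST1H2BK are filled in every column, while control 2, control 3, DDR1i 3, RUNXi 1 and RUNXi 3 hold 9 to 11 members each.

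The study asked whether the inhibitors of DDR1 and of RUNX change the same genes in collagen-treated cells. Each was compared with collagen alone in 1 fit of 11 libraries, without collagen replicate 3, by the quasi-likelihood test of edgeR, with p-values adjusted over all genes tested by the Benjamini-Hochberg method (threshold 0.05). These comparisons share their collagen libraries. A filter on low counts left 19 of the 45 members (3 of 5 linker and 16 of 40 core genes), so that 26 members were not tested. A member that passed had to reach the count minimum in enough libraries of the fit, and the counts that follow are over those 19 alone.

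With DDR1i, none of the 19 tested members was called. Of 13548 genes tested, 334 were called (2.47%), and of the 19 members 0 were called and 0 had an unadjusted p under 0.05, against 18% of all genes at that level. The estimate was higher with DDR1i for 11 members and lower for 8, with a median log2 fold change of 0.20 (all genes 0.00). Without the filter on low counts it was higher for 30 and lower for 15 of the 45, with a median of 0.70. The median turned to -0.15 without DDR1i replicate 2 (14 members tested) and to -0.096 without DDR1i replicate 4 (16 tested), so that no direction is read from it. The count over all genes rested on single libraries. It was 9 with collagen replicate 3 included, 87 without collagen replicate 4, 662, 184, 60 and 96 without DDR1i replicates 1 to 4, and 0 members were called in each of these fits. For HIST1H2BK the log2 fold change was -0.26 ± 0.37 (SE; 95% interval -1.03 to 0.51; adjusted p = 0.799), and for HIST1H1C it was -0.22 ± 0.44 (-1.12 to 0.68; adjusted p = 0.867). A rise of either gene to 2 times its collagen level lies outside these intervals, and a fall to a level of 1 in 2 lies inside. The smallest p-values were those of HIST1H2BN (log2 fold change 3.39 ± 2.21, adjusted p = 0.457), HIST3H2A (-0.86 ± 0.58, adjusted p = 0.476), HIST1H3F (-2.34 ± 1.64, adjusted p = 0.503), HIST1H2AG (2.40 ± 1.93) and HIST1H4H (2.25 ± 1.84). HIST1H2BN, an H2B gene, rested on 0, 14, 0 and 3 counts with DDR1i against 0, 0 and 1 with collagen, and HIST1H4H, an H4 gene, on 26, 19, 0 and 16 against 0, 0 and 11. No tested member had groups that did not overlap, against 15.1% of all genes.

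With RUNXi, none of the 19 tested members was called. Of 13548 genes, 549 were called (4.05%), and of the 19 members 0 were called. An unadjusted p under 0.05 was found for 1 member, HIST3H2A, against 21.1% of all genes. HIST3H2A was also the 1 member whose groups did not overlap, against 18.3% of all genes. Its log2 fold change was -1.34 ± 0.58 (SE; 95% interval -2.53 to -0.14; unadjusted p = 0.0296, adjusted p = 0.184 by edgeR), lower in 4 of 4 RUNXi libraries than in each of 3 collagen libraries. Over 23 alternatives the estimate was lower in 23, with adjusted p between 0.0788 and 0.964 in the 22 that gave one. The estimate was higher for 7 members and lower for 12, with a median log2 fold change of -0.27 (all genes 0.01). Without the filter it was higher for 23 and lower for 22 of the 45, with a median of 0.21, and without collagen replicate 2 or 4 the median was 0.014 and 0.076, so that no direction is read here either. The count over all genes was 60 with collagen replicate 3 included, 123 without collagen replicate 4 and 334, 285, 190 and 224 without RUNXi replicates 1 to 4. HIST1H2BK differed by -0.14 ± 0.37 (95% interval -0.91 to 0.63; adjusted p = 0.885) and HIST1H1C by -0.27 ± 0.44 (-1.17 to 0.63; adjusted p = 0.795). The next smallest p-values were those of HIST1H2BN (4.63 ± 2.25, adjusted p = 0.239), which had 0, 8, 11 and 23 counts with RUNXi, and HIST1H4D (-3.33 ± 2.07, adjusted p = 0.374), followed by HIST1H2BH (-1.25 ± 1.07), HIST1H2AC (1.31 ± 1.33) and HIST2H2BE (1.10 ± 1.26). For HIST1H2AC and HIST2H2BE the sign turned when the control group was the reference.

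DDR1i was compared with RUNXi in the same fit, which tests the difference between the inhibitors itself. Of 13548 genes, 77 were called (0.568%), and of the 19 members 0 were called. No member had an unadjusted p under 0.05, against 6.19% of all genes, and none had groups that did not overlap (4.5% of all genes). The estimate was higher with DDR1i for 13 members and lower for 6, with a median log2 fold change of 0.33 (all genes 0.01). Without the filter it was higher for 33 and lower for 12 of the 45, with a median of 0.67. Without DDR1i replicate 4 the median was 0.021 and without DDR1i replicate 1 it was 0.13, each with 9 members higher and 7 lower. Some members, such as HIST1H4H (26, 19, 0 and 16 counts with DDR1i, 0, 0, 0 and 6 with RUNXi), passed the filter mainly through DDR1i libraries. No direction is therefore read here either. By class, the estimate was above 0 for 3 of 3 linker, 4 of 6 H2A, 3 of 6 H2B, 0 of 1 H3 and 3 of 3 H4 members, none of which passed the test, and that of HIST1H1C turned sign in 4 of 22 alternatives. HIST1H4H differed by 3.46 ± 1.77 (adjusted p = 0.832), HIST1H4D by 3.51 ± 2.01 (adjusted p = 0.910), HIST1H1E by 2.36 ± 1.49 (adjusted p = 0.971) and HIST1H1B by 1.95 ± 1.44 (adjusted p = 0.999). HIST1H1C differed by 0.05 ± 0.41 (95% interval -0.79 to 0.89) and HIST1H2BK by -0.12 ± 0.35 (-0.83 to 0.60), so that a 2-fold difference lies outside both intervals. On the lower side the smallest p-values were those of HIST1H2BD (-0.83 ± 1.05), HIST1H2BN (-1.24 ± 1.62) and HIST1H2AC (-0.87 ± 1.19).

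A separate fit of 7 libraries set collagen against the control, which asks whether collagen alone changed the genes. Of 13092 genes, 0 were called (0%) by edgeR, with 1754 (13.4%) at an unadjusted p under 0.05, while DESeq2 called 414 and gave no member an adjusted p. Of the 19 members tested, 0 were called and 0 had an unadjusted p under 0.05. The estimate was higher with collagen for 8 members and lower for 11, with a median log2 fold change of -0.43 (all genes 0.01). HIST1H2BK differed by -0.21 ± 0.39 (95% interval -1.03 to 0.61; adjusted p = 0.885), HIST1H1C by -0.43 ± 0.61 (-1.73 to 0.87; adjusted p = 0.842) and HIST3H2A by 0.79 ± 0.70 (-0.69 to 2.27; adjusted p = 0.707). The smallest p-values were those of HIST1H2AH (-3.51 ± 2.19, adjusted p = 0.531), an H2A gene with 17, 0, 21 and 15 control counts against 0, 0 and 3, and HIST1H2AC (-1.63 ± 1.34, adjusted p = 0.676). HIST1H2AC was the 1 member whose groups did not overlap, against 13.6% of all genes. HIST1H2BD (-0.85 ± 1.16), HIST1H2BH (0.98 ± 1.46) and HIST1H1A (1.27 ± 1.95) had the next smallest p-values in their directions.

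**Figure D5:**
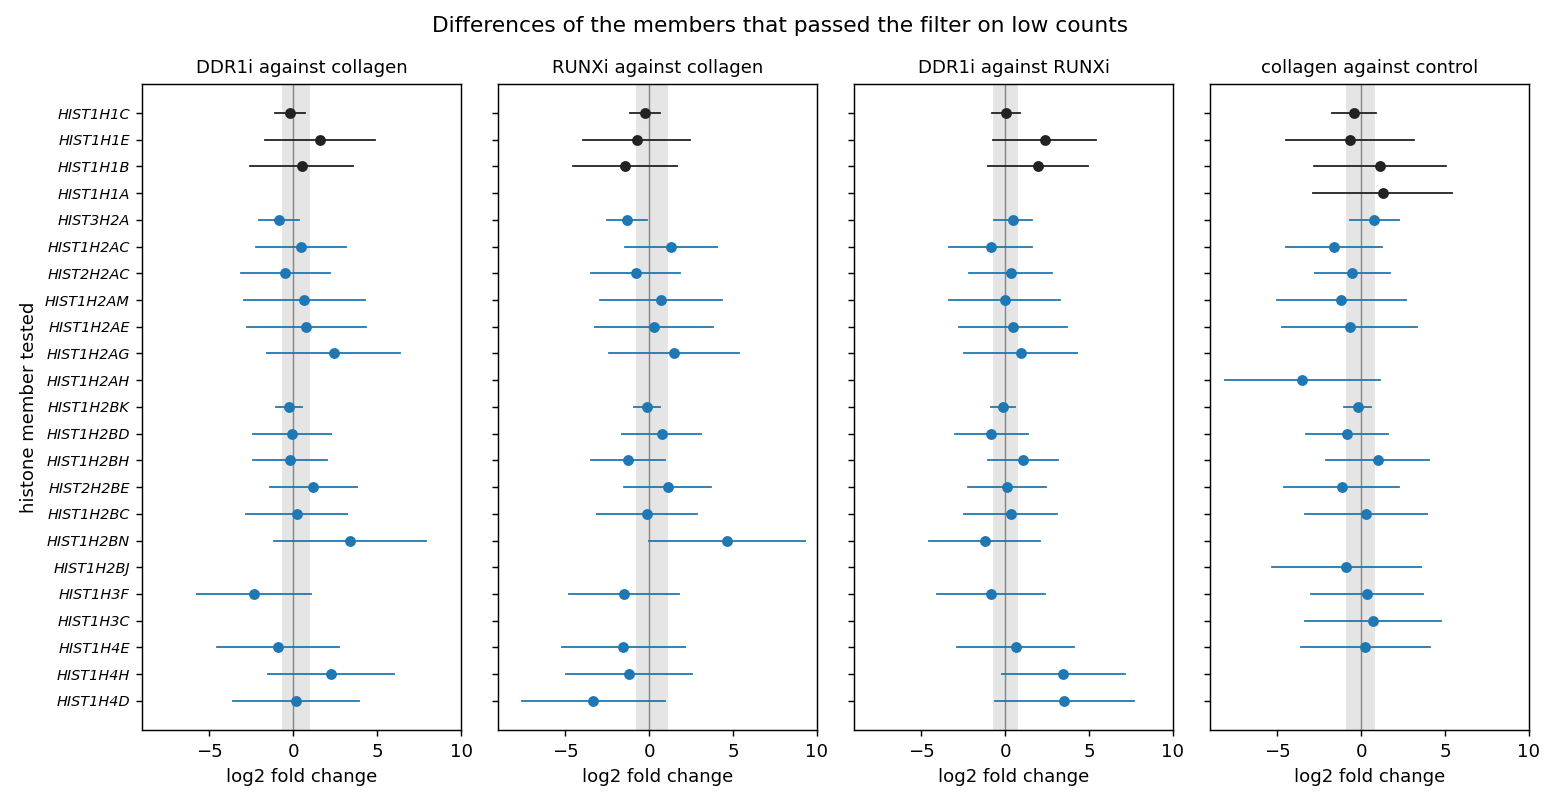
Log2 fold changes (points) with 95% intervals (lines) of the members tested in 4 comparisons, linker genes in black and core genes in blue. The grey band holds the middle 90% of all genes tested, and 0 is marked by a line. Intervals are narrowest for HIST1H2BK, HIST1H1C and HIST3H2A and reach past 4 log2 units in width for most others, and HIST3H2A with RUNXi is the 1 interval that leaves out 0.

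The SE of the member differences had a median of 1.50 with DDR1i and 1.71 for collagen, and a range of 0.37 to 2.21 and 0.39 to 2.19. For the members other than HIST1H2BK, HIST1H1C and HIST3H2A, changes of several fold lay within the intervals. On the log2 scale the intervals of HIST3H2A also reached -2.53 with RUNXi and 2.27 with collagen, and that of HIST1H1C reached -1.73 with collagen. Without the 7 libraries with under 100 genes at 1 count and with collagen replicate 3, a fit chosen after seeing the data, 27 members were tested with the inhibitors and 25 with collagen, and 0 were called. Over all genes that fit called 0 with DDR1i, 0 with RUNXi, 2 between the inhibitors and 0 with collagen, so that the 0 among the members carries little. At an unadjusted p under 0.05 there were 3 of 27 members with DDR1i against 2.38% of all genes, 2 of 27 with RUNXi against 3.02%, 1 of 27 between the inhibitors against 2.5% and 1 of 25 with collagen against 1.63%. In that fit 21 members had a higher and 6 a lower estimate with DDR1i than with collagen, and 2 had a higher and 23 a lower estimate with collagen than in the control. The last comparison set control 1 and 4, with 45 members each, against collagen 3 and 4, with 29 and 40. Members could pass the filter through the group in which they were high, so that no direction is read from these counts. The members at an unadjusted p under 0.05 were, with DDR1i, HIST1H3B (log2 fold change 6.60 ± 1.83, adjusted p = 0.995), HIST1H1E (4.77 ± 1.46) and HIST1H1B (2.50 ± 0.94), with RUNXi, HIST1H3B (6.02 ± 1.93) and HIST1H2BN (4.68 ± 1.82), between the inhibitors, HIST1H4H (2.97 ± 1.36), and with collagen, HIST1H1E (-4.45 ± 1.03, adjusted p = 0.993). HIST1H3B and HIST1H1E were at 0 to 3 counts in both collagen libraries of that fit, and HIST1H3B was named after its values were seen.

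Short transcripts moved as a group in these libraries. Genes with a canonical transcript under 1000 bases, as all members but HIST2H2BE have, had a median log2 fold change of -0.21 with DDR1i and -0.25 with RUNXi (n = 1028 genes), 0.02 between the inhibitors and 0.31 with collagen (n = 946). With the trend against transcript length removed from each library, the medians of the 19 members were 0.28, -0.09, 0.11 and -0.82 in these comparisons, and 0 members were called. The calls over all genes went from 334 to 158 with DDR1i, of which 34 were higher against 229 before, and from 549 to 196 with RUNXi, of which 76 were higher against 351 before. The part of transcript length in the member values was not tested further.

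The genes that make, end, degrade or deposit histones were read from lists. Of 16 factors of histone mRNA transcription, 3′ end processing and turnover, 1 was called with each inhibitor, against 2.47% of all genes with DDR1i and 4.05% with RUNXi. This was CASP8AP2 (FLASH), which is needed for histone mRNA 3′ end processing. It was at 11.6, 21.2 and 8.09 CPM with collagen (25.9 in replicate 3), at 26.1, 36.2, 23.7 and 31.0 CPM with DDR1i, at 31.2, 31.2, 24.8 and 28.3 CPM with RUNXi and at 28.2, 28.6, 12.4 and 35.1 CPM in the control libraries. All inhibitor libraries but DDR1i 3 and RUNXi 3 were above each collagen library, and these 2 were above the 3 used. CASP8AP2 rose with DDR1i (log2 fold change 1.10 ± 0.25, adjusted p = 0.0180) and with RUNXi (1.08 ± 0.25, adjusted p = 0.0187), in comparisons that share the collagen libraries. With collagen replicate 3 included, adjusted p was 0.454 and 0.250, and without collagen replicate 4 it was 0.0852 and 0.0910. The call with DDR1i was also lost without collagen replicate 1 (0.0522), DDR1i replicate 2 (0.0551) or DDR1i replicate 4 (0.0566). The group means were 26.1 ± 9.66 CPM in the control group, 13.6 ± 6.77 with collagen, 29.2 ± 5.54 with DDR1i and 28.9 ± 3.02 with RUNXi (SD, n = 4, 3, 4 and 4). The control libraries overlapped both inhibitor groups, so that the rise is one against the collagen libraries used. Over the alternatives the log2 fold change of CASP8AP2 was as low as 0.17 with DDR1i and 0.14 with RUNXi. Its canonical transcript is long (6088 bases), and calls of genes that rose became fewer without the length trend, as given above. The part of length in this call was not tested further. The stem-loop binding protein SLBP had means of 82.8 ± 7.92 CPM in the control group, 97.1 ± 17.3 with collagen, 86.2 ± 7.37 with DDR1i and 84.0 ± 11.8 with RUNXi (SD, n = 4, 3, 4 and 4), and was not called.

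Of 17 histone chaperones, 2 were called with RUNXi, ATRX and CABIN1, against 4.05% of all genes. ATRX, which works with DAXX to deposit H3.3, was at 29.1, 24.7 and 15.4 CPM with collagen (36.4 in replicate 3) and at 50.1, 35.7, 41.5 and 38.2 CPM with RUNXi, a rise of 0.84 ± 0.21 on the log2 scale (adjusted p = 0.0269). The control libraries were at 45.9, 18.8, 41.0 and 48.2 CPM, a range that held 3 of the 4 RUNXi values. CABIN1, which is part of the HIRA complex that also deposits H3.3, was at 40.3, 49.0 and 41.6 CPM with collagen (69.0 in replicate 3) and at 60.4, 65.3, 69.9 and 72.8 CPM with RUNXi, a rise of 0.61 ± 0.14 (adjusted p = 0.0209). The control libraries were at 63.1, 57.8, 65.0 and 57.4 CPM, between the collagen libraries used and the upper RUNXi values. Over the alternatives the log2 fold change was as low as 0.097 for ATRX and 0.14 for CABIN1. Both have long canonical transcripts (11165 and 7233 bases), and the part of length in these calls was not tested further. Of 11 replacement histone genes tested, 1 was called with RUNXi, against 4.05% of all genes, and 6 had an unadjusted p under 0.05, against 21.1%. The estimate was higher with RUNXi for 1 of the 11. The called gene, H1F0, the linker variant H1.0, fell by 0.58 on the log2 scale with RUNXi (SE 0.17, adjusted p = 0.0494), from 56.7, 47.9 and 50.6 CPM with collagen (44.97 in replicate 3) to 29.1, 28.6, 41.8 and 40.1 CPM. The control libraries were at 44.8, 49.2, 43.1 and 44.8 CPM. The collagen and RUNXi libraries of H1F0 did not overlap, against 18.3% of all genes. It was past the threshold in 5 of 12 alternative settings and in 2 of 11 fits that left out 1 library (those without DDR1i replicate 1 or 2). Its log2 fold change lay between -0.67 and -0.38 over the alternatives. With collagen replicate 3 included, adjusted p was 0.189 for H1F0, 0.249 for ATRX and 0.301 for CABIN1. Without collagen replicate 4, it was 0.123, 0.144 and 0.0742. ATRX was also lost without RUNXi replicate 1 (0.0677) or 3 (0.0622), and CABIN1 without collagen replicate 1 (0.0525) or RUNXi replicate 3 (0.0527) or 4 (0.0615). In the fits described above, none of these 4 genes was called between the inhibitors or with collagen against the control.

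Of 25 S-phase genes, such as the MCM helicase subunits, PCNA and the ribonucleotide reductase subunits, all were tested and 0 were called in the 4 comparisons. Their sum was 3820 ± 177 CPM in the control group (n = 4), 3797 ± 246 with collagen (n = 3), 3841 ± 180 with DDR1i (n = 4) and 3564 ± 197 with RUNXi (SD, n = 4). PCNA, the sliding clamp of DNA polymerases, had a log2 fold change of -0.44 ± 0.20 with DDR1i (adjusted p = 0.263) and -0.60 ± 0.20 with RUNXi (adjusted p = 0.103). It was at 472 CPM in collagen 4, against 253 and 237 CPM in the other collagen libraries used. Without collagen replicate 4 the values were -0.049 (adjusted p = 0.935) and -0.20 (adjusted p = 0.518), and without collagen replicate 2 PCNA was called with RUNXi (-0.80, adjusted p = 0.0378). At an unadjusted p under 0.05 there were 1 of 25 S-phase genes with DDR1i, PCNA, and 4 of 25 with RUNXi, against 18% and 21.1% of all genes. Of the 15 RNAs without a poly(A) tail, 7 were tested and 0 were called, and RN7SL2, of the signal recognition particle, had the smallest p with DDR1i (log2 fold change 1.66 ± 0.48, adjusted p = 0.0657). Of the epithelial markers, KRT14 fell by 0.90 on the log2 scale with DDR1i (SE 0.13, adjusted p = 0.00123) and ITGA6 rose by 0.59 ± 0.12 with RUNXi (adjusted p = 0.0106) and by 0.44 ± 0.12 with DDR1i (adjusted p = 0.0471), and the latter call was kept in 2 of 11 fits that left out 1 library. ITGA6 was at 706, 648, 589 and 1085 CPM in the control libraries, a range that overlapped its values with RUNXi (820, 913, 851 and 1098 CPM) and DDR1i (716, 864, 820 and 909 CPM).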

How the data were processed

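The authors extracted RNA with the RNeasy kit, prepared TruSeq mRNA libraries, aligned reads to GRCh37 (hg19) with STAR and deposited raw counts, the number of reads per gene and library, without normalization. The counting tool, annotation and use of strand are not given in the sources used here. Total counts were 12184619 to 44332378 per library, and floors of 3 counts cover counting error only. No column belonged to other samples.

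Members and lists were chosen with earlier results of these data known. Counts were tested with edgeR 4.0.16 in R 4.3.3 (TMM, filterByExpr, robust quasi-likelihood fit, Benjamini-Hochberg adjustment over all genes), with DESeq2 1.42.0 as an alternative. Collagen replicate 3 was left out of the fits, after the authors' own choice from a principal component plot. No replicates were counted as duplicates (lowest chi-square per degree of freedom 18.3). On simulated counts for DDR1i against collagen, 28 of 99 genes changed 2-fold and 96 of 99 changed 4-fold were called, with 7 unchanged genes called among 13321. The changed genes were drawn from all genes tested, with the same spread for all and no loss of low counts. These shares therefore do not describe the members, most of which had low counts.

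Genes named were HIST1H1C, HIST1H2BK, the other 7 members on the polyadenylated list, all linker members, the 5 members with the highest mean CPM, the 3 with the smallest p in each direction of each comparison, and called genes of the other lists. Names were matched to GENCODE v44 lifted to GRCh37 (43 of 45 members) and to RefSeq (all 73 symbols), and motifs were searched on both strands. Alternatives covered the test, scaling, filter, libraries, groups, reference, replicate block and transcript length. Figures were drawn with matplotlib 3.10.9.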

Additional observations from a re-analysis of the deposited data

Results flagged for a closer look

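Of 36 groups of 4 libraries looked at for 1 library apart from the others (levels of HIST1H2BK, HIST1H1C and HIST3H2A, summed levels, members detected, total counts and genes at 1 count), 4 were flagged, and chance flags about 1 in 20. HIST1H1C was at 4.67 CPM in DDR1i 3, above the 2.97 to 3.22 CPM of the other DDR1i libraries, and that library held 11 of the 45 members. HIST1H1C was at 2.42 CPM in RUNXi 1, below the 3.63 to 3.83 CPM of the other RUNXi libraries, and that library held 10 members. Collagen 1 had 17570707 counts, fewer than the other collagen libraries. RUNXi 4 had 588 genes at 1 count, more than the other RUNXi libraries, and 44 of the 45 members were detected in it.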

How the results depend on the processing

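The number of members called was 0 in 84 alternative fits of the 4 comparisons, with 3 to 45 members tested and at most 3 at an unadjusted p under 0.05. In 17 of these fits no gene at all was called, so that they say nothing of stability, and 67 made calls among all genes. DESeq2 gave an adjusted p to 0 of 45 members with DDR1i, 1 with RUNXi, 41 between the inhibitors and 0 with collagen, and the fits with none were not counted. The lowest adjusted p of a member over the alternatives was 0.188 with DDR1i, 0.0788 with RUNXi, 0.217 between the inhibitors and 0.358 with collagen. Replicate numbers were not taken to pair the libraries, since 7 of 24 same-number pairs had a correlation over 0.1. As a hint from the data, all 6 pairs of replicate 4 were among these 7 (0.161 to 0.276), and 12 of 16 libraries correlated best with their own number. With a replicate block 0 members were called, the calls over all genes went to 537, 759, 154 and 0, and the member median with DDR1i went from 0.20 to 0.87 (14 higher, 5 lower).

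The calls over all genes with DDR1i (334) and RUNXi (549) became 857 and 1160 with DESeq2, 755 and 1046 without the filter, 158 and 196 without the length trend and 28 and 53 with the control as reference. Those between the inhibitors (77) became 134 with DESeq2 and 163 without the filter, and those with collagen (0) became 284 without the filter and 313 with all groups fitted together.

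Of 597 alternative values of 32 printed fold changes, 20 turned sign, in 5 members, all at values that were not called, and the cause was not tested. For HIST1H2BK with RUNXi the log2 fold change was 0.085 under the block, 0.032 without the length trend and 0.061 without the libraries with few genes at 1 count. In the latter fit it was 0.049 for HIST1H1C with RUNXi, -0.25 for HIST1H1C between the inhibitors (-0.013 without the length trend) and -1.01 for HIST1H2BH with collagen. With the control as reference it was -0.31 for HIST1H2AC and -0.063 for HIST2H2BE with RUNXi, and under the block 0.11 for HIST1H2AC between the inhibitors. Leaving out 1 library, HIST1H2BK ranged from -0.57 to 0.18 with DDR1i, -0.46 to 0.30 with RUNXi, -0.28 to 0.051 between the inhibitors and -0.65 to 0.082 with collagen, and HIST1H1C from -0.11 to 0.13 between the inhibitors and -0.75 to 0.29 with collagen.

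The summed level moved by more than 1 SD without the polyadenylated list, to 11.8 CPM in the control group, 8.44 with collagen, 12.7 with DDR1i and 6.54 with RUNXi, and with a minimum of 200 counts, to 23.5 in the control group and 20.3 with collagen, since fewer genes were summed.

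Members took few counts, 42 of 45 were at 0 in at least 1 library, and 26 were not tested. The libraries with few members were spread over all groups, but not evenly in the fits. Those with under 100 genes at 1 count were 2 of the 3 collagen libraries used, 1 of 4 DDR1i and 2 of 4 RUNXi libraries.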
